A study of Drosophila melanogaster with 8 samples.

Results

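The genes FucTB, CG1850 and Obp99b were described here for how their ratios varied from array to array along with Fbp2, the gene of fat body protein 2. They are 3 of 6793 genes that could be named on spotted cDNA arrays of Drosophila melanogaster larvae, and were taken by symbol: the spots carrying each symbol were averaged per gene and array over all 8 arrays. The symbols had been chosen for a profile resembling that of Fbp2 on these same arrays, so the likeness and the levels of the 3 genes are given as a description with no test. On 4 arrays, larvae of the Rover background carrying the allele DGCalpha1[3] of the guanylyl cyclase gene Gycalpha99B were set against Rover larvae without it. On the other 4, sitter larvae with DGCalpha1[3] were set against sitter larvae without it. All were untreated larvae of the last instar, and total RNA of whole larvae was used. Rover and sitter are natural variants of larval foraging behaviour. The labels do not say whether the arrays of a background came from separate larvae, so the spread between arrays may be technical.

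The larval fat body is the insect counterpart of liver and adipose tissue. Towards the end of larval life it makes large amounts of secreted storage proteins, such as the larval serum proteins, which it later takes back from the blood. Fbp2 is made in the fat body of late larvae and is related in sequence to alcohol dehydrogenase. FucTB belongs to a family of fucosyltransferases, enzymes that attach the sugar fucose to glycans. Odorant-binding proteins such as Obp99b are small secreted proteins, several of which are also made outside the chemosensory organs. CG1850 has no name beyond its identifier in the gene table.

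Each value is a log2 ratio of the channels of 1 array, and base 2 is an assumption. The labels place the RNA without the allele in channel 1 and the DGCalpha1[3] RNA in channel 2, but they do not state which dye or channel is on top of the ratio. A positive ratio is therefore not read as more transcript in the mutant. RNA of whole larvae also cannot tell fewer fat body cells from less RNA per cell.

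FucTB, CG1850 and Obp99b had their most positive ratios on Rover 3 and their most negative on sitter 4, as Fbp2 did. The ratio of Fbp2 was 0.12, 0.57, 3.78 and 1.67 on Rover arrays 1 to 4, and -0.02, -0.36, -0.96 and -4.27 on sitter arrays 1 to 4. All Rover arrays lay above all sitter arrays. The imbalance between the channels was 13.8-fold on Rover 3 and 19.3-fold, in the opposite direction, on sitter 4.

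FucTB gave 0.48, 0.38, 3.66 and 1.23 on Rover arrays 1 to 4, and -0.03, -0.13, -0.54 and -3.56 on sitter arrays 1 to 4. As with Fbp2, the Rover arrays were all positive and the sitter arrays all negative, although sitter 1 lay close to 0. Its mean was 1.44 ± 1.53 in Rover and -1.07 ± 1.68 in sitter (SD, n = 4 each). The difference, Rover minus sitter, was 2.51 ± 0.93 (SE from limma over all features).

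CG1850 gave 0.12, 0.23, 3.26 and 1.68 on Rover arrays 1 to 4, and -0.17, -0.11, -0.40 and -5.75 on sitter arrays 1 to 4. It combined near-zero ratios on 5 arrays with the most negative value of the 4 genes, a 53.8-fold imbalance on sitter 4. Its mean was 1.32 ± 1.47 in Rover and -1.61 ± 2.77 in sitter (SD, n = 4 each), a difference of 2.93 ± 1.28 (SE). Without sitter replicate 4 the difference was 1.55.

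Obp99b gave -0.62, -0.36, 2.57 and 1.70 on Rover arrays 1 to 4, and 0.10, -0.38, -0.87 and -3.39 on sitter arrays 1 to 4. Unlike in Fbp2, the backgrounds overlapped, since Rover 1 and Rover 2 were negative and sitter 1 was slightly positive. Its mean was 0.82 ± 1.56 in Rover and -1.14 ± 1.56 in sitter (SD, n = 4 each), a difference of 1.96 ± 0.91 (SE). Without sitter replicate 4 the difference was 1.21.

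**Figure D1:**
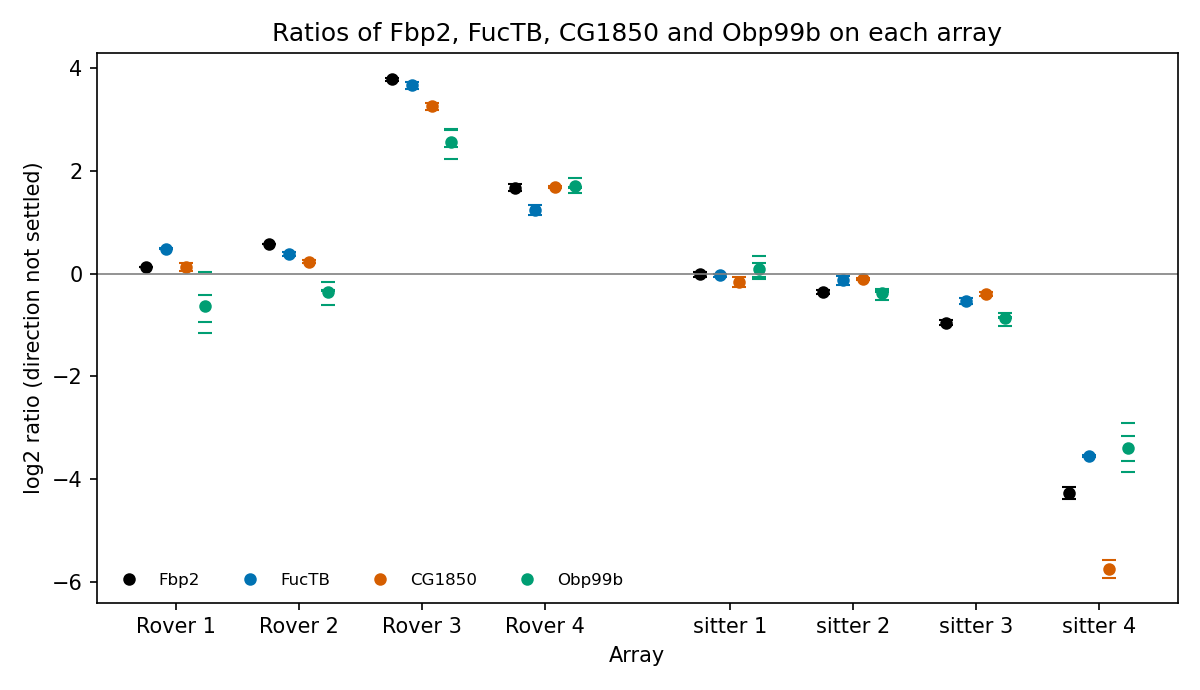
Log2 ratios (vertical axis) of Fbp2, FucTB, CG1850 and Obp99b on the 4 Rover and 4 sitter arrays (horizontal axis). Points are the mean of a gene's spots on an array and dashes the single spots; Rover 3 is highest for all 4 genes, from 2.57 to 3.78, and sitter 4 lowest, from -5.75 to -3.39.

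For FucTB and CG1850 no Rover array overlapped a sitter array, with Rover above. Of the 19325 features tested, 1.44% had Rover above sitter with no overlap, and 0.388% had all Rover arrays positive and all sitter arrays negative. These shares are a background only, as the genes were chosen on these arrays. The spread within a background was large beside the difference between backgrounds. The difference between backgrounds took 44.8% of the sum of squares over the 8 arrays for FucTB, 36.8% for CG1850 and 34.5% for Obp99b, against 47.0% for Fbp2. By SD over the 8 arrays, CG1850 ranked 2nd, FucTB 7th and Obp99b 9th among the 6793 genes, and Fbp2 ranked 4th. Without sitter replicate 4 the difference of FucTB was 1.67 and that of Fbp2 1.98.

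The order of the arrays is part of the profile on which the genes were chosen, so it and its share of all genes are a description only. In all 4 genes Rover 3 was highest and Rover 4 next, and sitter 4 was lowest and sitter 3 next. This order of the outer arrays was found in 13 of the 6793 genes, Fbp2, FucTB, CG1850 and Obp99b included, and in 20 after each array was centred on its median, again with these 4 among them. The middle arrays did not separate as clearly: Rover 1, Rover 2, sitter 1 and sitter 2 spanned 0.12 to 0.57 and -0.36 to -0.02 for Fbp2, and changed places between the genes.

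Against Fbp2, the Pearson correlation over the 8 arrays was 0.994 for FucTB, 0.975 for CG1850 and 0.974 for Obp99b. Spearman's rho was 0.976, 0.976 and 0.881 in the same order of genes. Among the 6792 other genes these were the 1st, 3rd and 4th highest values of r, with the larval serum protein gene Lsp2, at 0.983, in 2nd place. Just below Obp99b came Sfxn2, a sideroflexin gene, at 0.969, whose ratios ran only from -0.73 on sitter 4 to 0.19 on Rover 3. The median r of all other genes was -0.38, and 11 of them (0.162%) reached 0.9. With each array centred on its median, the median r was 8.5e-05 and 47 genes (0.692%) reached 0.9. FucTB, CG1850 and Obp99b then ranked 1st, 4th and 5th. The points share their arrays, and an r over 8 arrays of this spread is dominated by the outermost ones.

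Leaving out Rover 3 and sitter 4, the arrays on which Fbp2 lay farthest from its median, r was 0.969 for FucTB, 0.942 for CG1850 and 0.870 for Obp99b over the remaining 6 arrays. The ranks among the 6792 genes were then 9, 18 and 85, and 52 genes reached 0.9. Taken as deviations from the mean of each background, the correlation with Fbp2 was 0.989 for FucTB, 0.967 for CG1850 and 0.970 for Obp99b. These values pool the deviations of both backgrounds, with Rover 3 and sitter 4 included, on the arrays on which the genes were chosen. No r is given for either background alone. Among themselves the 3 genes correlated at 0.970 for FucTB with CG1850, 0.958 for FucTB with Obp99b and 0.956 for CG1850 with Obp99b.

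**Figure D2:**
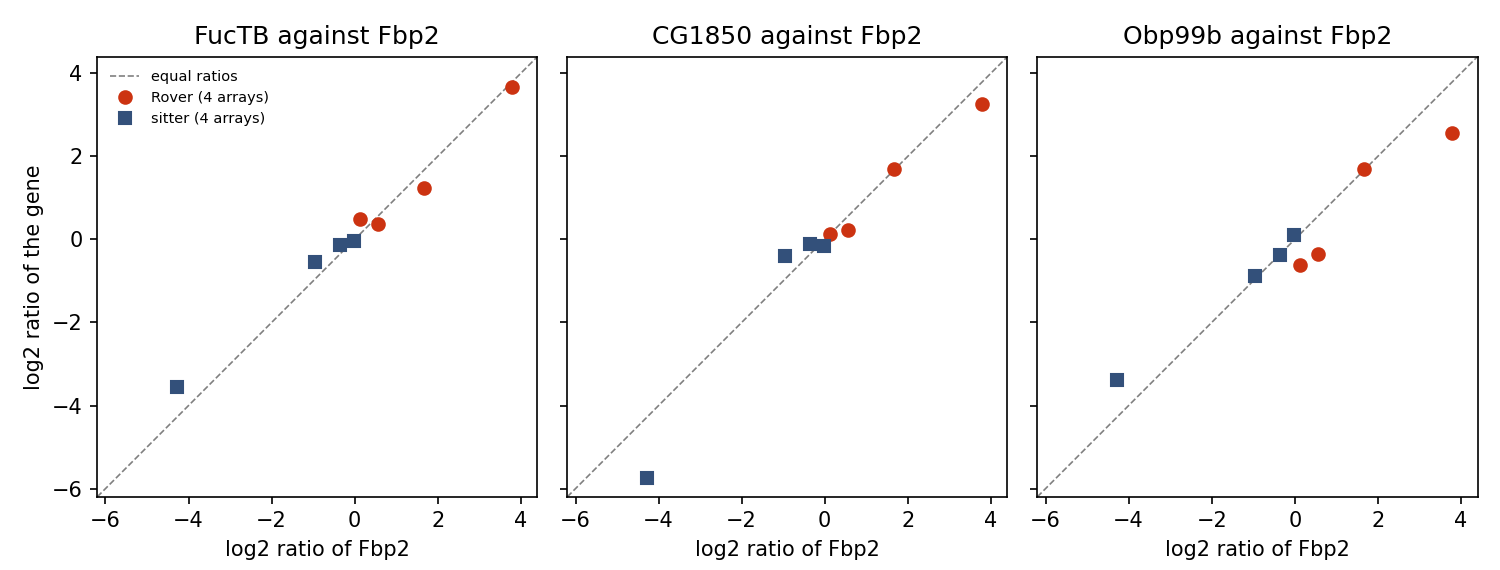
Log2 ratio of FucTB, CG1850 and Obp99b (vertical axes) against the log2 ratio of Fbp2 (horizontal axes), 1 point per array, with circles for Rover and squares for sitter. The dashed line marks equal ratios; FucTB stays within 0.71 of it, whereas CG1850 departs from it by -1.48 on sitter 4 and Obp99b by -1.21 on Rover 3.

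The genes followed Fbp2 with different amplitude. A line fitted over the 8 arrays had a slope of 0.87 for FucTB, 1.10 for CG1850 and 0.76 for Obp99b per unit of Fbp2 ratio, with a residual SD of 0.24, 0.62 and 0.43. FucTB minus Fbp2 ran from -0.44 on Rover 4 to 0.71 on sitter 4. CG1850 minus Fbp2 ran from -1.48 on sitter 4 to 0.56 on sitter 3, and was 0.00 on Rover 1 and 0.01 on Rover 4. Obp99b minus Fbp2 was -0.74, -0.93 and -1.21 on Rover arrays 1 to 3, and from -0.02 to 0.11 on Rover 4 and sitter arrays 1 to 3, with 0.87 for sitter 4.

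Duplicate spots measured the precision of a value on 1 array. The 2 spots of FucTB differed by at most 0.20 on any array, those of CG1850 by at most 0.34 and those of Fbp2 by at most 0.24. Over the 6106 genes with 2 spots, the median difference between the spots on an array was 0.18 and the 95th percentile 0.76. On sitter 4 the FucTB spots gave -3.58 and -3.54, the Fbp2 spots -4.39 and -4.15, and the CG1850 spots -5.58 and -5.92, so that on this array the 3 genes were apart by more than their spots. Obp99b had 4 spots, which agreed less well. On Rover 1 they gave -0.42, 0.03, -1.15 and -0.95, a range of 1.18, and on sitter 4 they ran from -3.87 to -2.90. Each of the 4 spots alone correlated with Fbp2 at 0.960 to 0.973.

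FucTB and Fbp2 are near neighbours on chromosome arm 2L. A single protein-coding gene, CG42847, lies between them in the Release 6 gene table and overlaps both, and it had no named spot. The build behind the array's own annotation is not stated, so no coordinates are given. Whether the FucTB spots also bind transcripts of Fbp2 or CG42847 was not tested. The next measured genes on either side behaved otherwise: Mco1, a multicopper oxidase gene beyond Fbp2, correlated with FucTB at -0.65, and scat, beyond FucTB, at -0.44. On Rover 3 Mco1 stood at -1.54 and scat at -0.69, where FucTB was at 3.66.

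Obp99b lies on arm 3R near the mutated gene Gycalpha99B, with 4 protein-coding genes between them. These neighbours were looked up after the values had been seen. Gycalpha99B itself gave -0.67, -0.96, 0.14 and 0.45 on Rover arrays 1 to 4, and 0.18, -0.52, -0.32 and -0.40 on sitter arrays 1 to 4. These ratios did not set the backgrounds apart, with means of -0.26 ± 0.66 in Rover and -0.27 ± 0.31 in sitter (SD, n = 4 each), and no label says which part of the gene its clone covers. Its r with Obp99b was 0.57. Of the genes in between, Obp99c correlated with Obp99b at -0.62 and Obp99d at -0.61, and Dup99B and dmrt99B had no named spot. Of the 30 protein-coding genes within 5 places of FucTB, CG1850 or Obp99b, 11 were measured besides Fbp2. Their r with the neighbour ran from -0.85 to 0.57, and none exceeded an SD of 0.60 over the arrays. The most negative were CG12164 (-0.85) and Gadd45 (-0.72), both near CG1850.

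The other odorant-binding protein genes did not share the swings of Obp99b. In 19 measured genes of this family other than Obp99b, r with Fbp2 ran from -0.88 to 0.07, with a median of -0.48, and the largest SD over the arrays was 0.63, against 1.78 for Obp99b. In Rover 16 of the 19 passed as negative and 0 as positive, which leaves 3 (limma, adjusted p under 0.05 over all features). Of all features 45% were called negative in Rover and 1.7% positive. After centring, 12 of the 19 were negative and 0 positive, against 23.4% and 24.7% of all features. The family's median ratio in Rover was -0.99, against -0.34 for all genes.

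In sitter 12 of the 19 were called negative and 0 positive, against 23% and 0.724% of all features; the median was -0.78, against -0.15 for all genes. After centring 9 were negative and 0 positive, against 10.6% and 2.7% of features. Without sitter replicate 2, and also without sitter replicate 3, 0 of the 19 were called in sitter by limma. Of them 14 and 12 had an unadjusted p under 0.05. Of all 19325 features only 24 and 22 were called there, and 5124 and 5049 had an unadjusted limma p under 0.05. The loss of calls was thus not particular to this family. None of the 19 passed in the difference between backgrounds as deposited, as 0.0466% of all features did. An unadjusted limma p under 0.05 was found in 3 of the 19, and in 1816 of the 19325 features.

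Besides Obp99b, the largest differences between backgrounds in this family were in Obp19a, Obp99c and Obp19d, all with the opposite sign to Obp99b. Obp99c, 4 genes away from Obp99b, gave -0.71, -0.75, -0.55 and -0.31 on Rover arrays 1 to 4, and -0.19, -0.21, 0.15 and 0.50 on sitter arrays 1 to 4. The backgrounds did not overlap, with Rover below, as in 4.5% of all features. The difference was -0.64 ± 0.20 (SE; limma adjusted p = 0.409). Its Rover mean of -0.58 was called negative by limma as deposited (adjusted p = 0.00951) and not after centring (adjusted p = 0.373). Obp19a differed by -0.73 ± 0.25 (SE; limma adjusted p = 0.452) and Obp19d by -0.63 ± 0.24 (SE; limma adjusted p = 0.479).

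**Figure D3:**
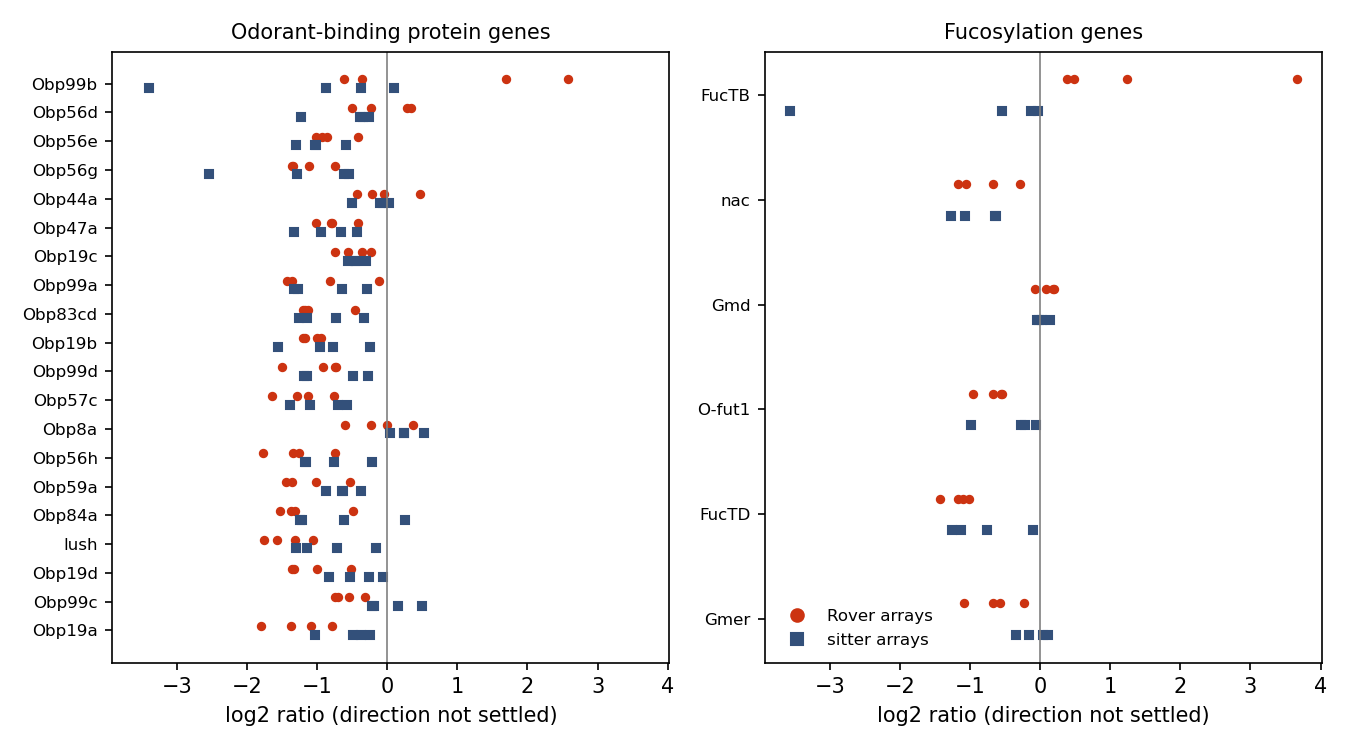
Log2 ratios (horizontal axes) of each measured odorant-binding protein gene, left, and fucosylation gene, right, with circles for the 4 Rover arrays and squares for the 4 sitter arrays. Obp99b, from -3.39 to 2.57, and FucTB, from -3.56 to 3.66, have the widest spread in their panels.

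Genes of fucose metabolism and transfer likewise differed from FucTB. Of 13 listed genes 5 were measured besides FucTB, and their r with Fbp2 ran from -0.64 to -0.09, with none above an SD of 0.41 over the arrays. In Rover 4 of the 5 were called negative by limma and 0 positive, against 45% and 1.7% of all features, and after centring FucTD was negative and Gmd, whose product acts in GDP-fucose synthesis, positive (limma adjusted p = 0.00933 and 0.00805). After centring 23.4% of all features were negative and 24.7% positive, so 1 of 5 each way is near the share of all features. In sitter FucTD and nac, a GDP-fucose transporter gene, were called negative and 0 positive, where 23% and 0.724% of all features were. By limma 0 were called without sitter replicate 2 or without sitter replicate 3, with 3 and 2 at an unadjusted p under 0.05. Of all 19325 features only 24 and 22 were called there, and 5124 and 5049 had an unadjusted limma p under 0.05. None passed in the difference, and 1 had an unadjusted limma p under 0.05. Of all 19325 features 9 passed and 1816 had an unadjusted limma p under 0.05.

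FucTD, of the same fucosyltransferase family as FucTB, gave -1.10, -1.01, -1.43 and -1.16 on Rover arrays 1 to 4, and -0.10, -1.26, -1.12 and -0.76 on sitter arrays 1 to 4. It was negative on all 8 arrays, with neither the high Rover 3 nor the low sitter 4 of FucTB. Its mean was -1.18 ± 0.18 in Rover (limma adjusted p = 0.00230) and -0.81 ± 0.52 in sitter (limma adjusted p = 0.0203; SD, n = 4 each). Without sitter replicate 2 or 3 the sitter mean did not pass (limma adjusted p = 0.0949 and 0.0989), where 24 and 22 of all 19325 features did. Gmer, for an enzyme of GDP-fucose synthesis, differed by -0.56 ± 0.21 between backgrounds (SE; limma adjusted p = 0.465). O-fut1, whose product adds fucose to Notch, differed by -0.30 ± 0.22 (SE; limma adjusted p = 0.662). Both were called negative in Rover as deposited and in neither background after centring.

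Sequence relatives of Fbp2 were no closer to it in profile. Adh, the alcohol dehydrogenase gene, gave -0.39, -0.40, -2.58 and -1.15 on Rover arrays 1 to 4, and -0.35, -0.40, -0.49 and -0.47 on sitter arrays 1 to 4. On Rover 3, where Fbp2 and the 3 genes were at their highest, Adh was at its lowest, and on sitter 4 it did not stand apart. Its r with Fbp2 was -0.72. In Rover it was called negative by limma as deposited (adjusted p = 0.0153), but not after centring (adjusted p = 0.0576) or without Rover replicate 4 (adjusted p = 0.0505). Pdh, a related dehydrogenase gene of the eye, had an r of -0.12.

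Of the listed larval storage and fat body genes, Lsp1alpha, Lsp1beta and Lsp1gamma had no named spot. Among those measured only Lsp2 came as close to Fbp2 as the 3 genes did. It gave -0.04, -0.39, 1.75 and 0.79 on Rover arrays 1 to 4, and -0.24, -0.69, -1.49 and -3.84 on sitter arrays 1 to 4, and it correlated at 0.973 with FucTB, 0.974 with CG1850 and 0.964 with Obp99b. Of the 8 measured genes of this list other than Fbp2, 2 had an r with Fbp2 of 0.8 or more, Lsp2 and the yolk protein gene Yp3 (0.844, with an SD of only 0.37 over the arrays), against 0.721% of all genes. Fbp1, whose product is the receptor for uptake of larval serum protein, peaked on Rover 4 (1.32) rather than Rover 3 (0.85), and was lowest on sitter 3 (-2.08) while sitter 4 was at -0.50. Its r with Fbp2 was 0.55. The lipid carrier gene apolpp stayed between -0.72 and 0.23. As deposited, limma called 1 of the 8 negative in Rover (Yp2, adjusted p = 0.00796) and 1 in sitter (apolpp, adjusted p = 0.0308), with 0 positive in either. Over all features 45% were negative in Rover and 23% in sitter. The apolpp call was lost without any 1 of the sitter arrays (adjusted p from 0.0627 to 0.109) and with print lot as a block (adjusted p = 0.0602). Without Rover replicate 1, 3 of the 8 were called negative in sitter, where 4878 of all 19325 features were. Without sitter replicate 2, 3 or 4, 0 of the 8 were called, and 2, 3 and 3 had an unadjusted limma p under 0.05. Of all features 24 were called in sitter without sitter replicate 2, 22 without sitter replicate 3 and 3900 without sitter replicate 4. After centring Yp2 remained negative in Rover (adjusted p = 0.0420), apolpp, Yp1 and Yp3 were positive there, where 23.4% of all features were negative and 24.7% positive, and 0 were called in sitter, with 2 at an unadjusted p under 0.05. None passed in the difference between backgrounds, where 2 had an unadjusted limma p under 0.05. Of all 19325 features 9 passed there and 1816 had an unadjusted limma p under 0.05.

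Beyond these genes the 5th most alike, among genes with an SD of at least 0.5, differed by member. For Fbp2 and FucTB it was CG3355 (r of 0.887 and 0.896), positive on all Rover arrays, from 0.54 to 1.89, and between -0.49 and 0.26 in sitter. For CG1850 and Obp99b it was the fatty acid synthase gene FASN3 (r of 0.918 and 0.882). FASN3 stayed within -0.66 to 0.39 except on sitter 4, where it gave -2.17, and without sitter 4 its r was 0.606 with CG1850 and 0.754 with Obp99b. For CG3355 it was 0.877 with Fbp2 and 0.888 with FucTB without that array.

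**Figure D4:**
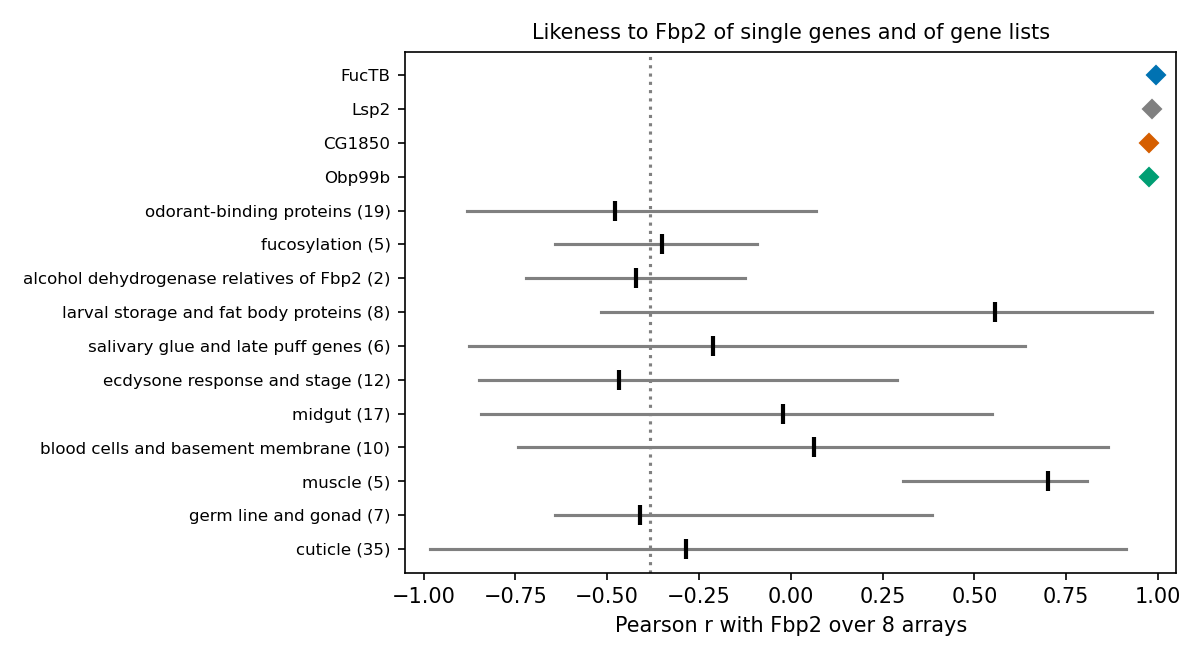
Pearson r with Fbp2 over the 8 arrays (horizontal axis) for FucTB, Lsp2, CG1850 and Obp99b, shown as diamonds, and for gene lists, with the range of their genes as a line, the median as a tick and the number of measured genes in brackets; Fbp2 and the 3 genes are left out of the lists. The dotted line is the median of all other genes, -0.38; the 4 single genes lie between 0.974 and 0.994.

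In the ratios as deposited, where the median r of all genes with Fbp2 was -0.38, few markers of other tissues reached an r of 0.8. None of the 6 measured salivary glue and late puff genes, the 12 of ecdysone response and larval stage, the 17 of midgut or the 7 of germ line and gonad reached an r of 0.8 with Fbp2. In blood cells and basement membrane 1 of 10 did (PPO3, 0.865), in cuticle 1 of 35 (Cpr49Ac, 0.912), and in muscle 1 of 5 (Mlc2, 0.808). Of all genes 0.721% did. The 5 muscle genes had an r from 0.31 to 0.81, with a median of 0.70. The median was 0.56 in the list of larval storage and fat body genes. The median ratio of the muscle list ran from -0.28 to 0.23 on the Rover arrays and from -0.29 to 0.03 on the sitter arrays. It was highest on Rover 3 and lowest on sitter 4, with an r of 0.79 with Fbp2. The part of muscle RNA in the result was not tested. Centring each array changed the r of list medians with Fbp2. It went from -0.64 to 0.72 for cuticle and from 0.17 to 0.72 for blood cells and basement membrane. For midgut it went from -0.26 to 0.45, and for muscle from 0.79 to 0.87. For ecdysone response and stage it went from -0.61 to -0.01, and for salivary glue and late puff from -0.47 to -0.21. For germ line and gonad it went from -0.66 to -0.50. The median r of all genes was then 8.5e-05. Some markers also varied widely. Eig71Ee, a late puff gene, had an SD of 2.97 over the arrays, above the 3 genes, which had SDs of 1.78 for Obp99b to 2.58 for CG1850. It gave -0.38, -0.24, 3.63 and 4.75 on Rover arrays 1 to 4, and 0.26, -0.17, -5.03 and -0.98 on sitter arrays 1 to 4. Its highest array was Rover 4, with Rover 3 next, and its lowest was sitter 3, with sitter 4 next. Its r with Fbp2 was 0.64. The salivary glue gene Sgs4 had an SD of 1.46 and an r of -0.21, and Amyrel, an amylase-related gene of the midgut list, an SD of 1.40 and an r of -0.30. Both SDs were below those of the 3 genes. The part of these tissues in the result was not tested.

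Rover 3 and sitter 4 differed in scanner settings. Both were of print lot B and hybridised for 17.75 hours, as were Rover 2, Rover 4, sitter 2 and sitter 3. The Cy5 gain was 64 on Rover 3 and 4 other arrays, and 68 on sitter 4 and sitter 1, so that sitter 4 was the single array of print lot B with a Cy5 gain other than 64. Over the 5 arrays with a Cy5 gain of 64, r with Fbp2 was 0.988 for FucTB, 0.987 for CG1850 and 0.957 for Obp99b. Rover minus sitter was then 2.09 for FucTB, 1.98 for CG1850 and 1.93 for Obp99b. The part of the settings in the ratios of sitter 4 was not tested. The Cy3 gain was 74 on Rover 3, Rover 2 and sitter 2, and 73 on sitter 4 and the others. The median ratio of all spots was -0.47 on Rover 3 and -0.13 on sitter 4, where the arrays ran from -0.47 to -0.10. Rover 3 was thus the array of the lowest median and of the highest ratios of the 3 genes. With each array centred on its median, r with Fbp2 was 0.994 for FucTB and 0.977 for CG1850 and for Obp99b. Rover 1 and sitter 1, of print lot A, had small ratios for all 3 genes, between -0.62 and 0.48, and print lot B alone gave an r of 0.995 for FucTB, 0.976 for CG1850 and 0.982 for Obp99b. In print lot B alone Rover minus sitter was 3.17 for FucTB, 3.81 for CG1850 and 2.85 for Obp99b, and print lot A held 1 array of each background.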

How the data were processed

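The authors deposited 1 log ratio per spot and array, made from normalised intensities and taken here as log2. Per the labels' protocols, scanning used a ScanArray 4000 instrument and quantification QuantArray version 3, without background subtraction. No source used here gives the normalisation method, the log base or the numerator. Each of 8 arrays held 27648 spots. Of these, 15116 had 1 gene symbol in the probe table, 102 had several and 12430 were not listed. Spots of a gene were averaged, which gave 6793 genes, and the other 12532 spots were kept singly, for 19325 features.

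One limma model (version 3.58.1, R 4.3.3) with empirical Bayes moderation held both background means for every feature on the 8 arrays. A call is a Benjamini-Hochberg adjusted p under 0.05, taken over the 19325 features. Rover minus sitter is positive where the Rover ratio is higher. FucTB, CG1850, Obp99b and Fbp2 received no test of their means, differences or r. Dixon's criterion on their arrays served as a flag only. The model and the ranking by r were tested on simulated data. Ratios were not centred; centring each array on its median over features, scaling, blocks and left-out arrays were alternatives. The number of arrays limits precision.

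The rule for naming took Fbp2, the 3 genes, the 5 genes of highest r with each of these (SD over arrays of at least 0.5), the 3 of lowest r with Fbp2, the genes next to each in rank, any listed gene called in the difference, and up to 4 genes of each gene list with the largest difference. These genes and lists were chosen with earlier results of these data known. Promoter motifs and protein sequences were not analysed here.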

Additional observations from a re-analysis of the deposited data

Results flagged for a closer look

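Some arrays and genes stood apart by fixed criteria, here with values only. In FucTB, the sitter 4 value of -3.56 lay far from the other sitter arrays by Dixon's criterion at 95%. The same held for CG1850 at -5.75, for FASN3 at -2.17 and for CG14265 at 0.68, all on sitter 4. CG14265 is 1 of the genes least like Fbp2. For groups not chosen on their values, chance alone marks about 1 in 20. Here 42 groups of 4 arrays were checked over 21 genes, which share their arrays. The genes were named by their r or their differences on these same arrays, so this rate does not carry over to them. FucTB and CG1850 were chosen for a profile like that of Fbp2, which was itself lowest on sitter 4. Their flags are therefore a description and no test.

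For Fbp2 (Rover minus sitter 2.94), CG1850 (2.93) and FucTB (2.51), all Rover ratios were positive and all sitter ratios negative. These differences were not tested, as the genes were chosen on these arrays.

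Spots outside the named genes were searched for the profile of Fbp2, so the likeness of those found is the limit set and not a result. Of 12532 spots without a single gene name, 359 had an SD of at least 1 over the arrays, and 5 of these correlated with Fbp2 at 0.9 or more (0.923 to 0.966). Taking consecutively numbered spots as pairs, they came from 3 pairs. Their ratios ran from 1.46 to 2.29 on Rover 3 and from -2.42 to -1.26 on sitter 4. Under the same limits 4 of the 6792 named genes besides Fbp2 qualified, which were FucTB, CG1850, Obp99b and Lsp2.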

How the results depend on the processing

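The correlation of each gene with Fbp2 stayed positive under every alternative run, from 0.969 to 0.996 for FucTB, 0.942 to 0.988 for CG1850 and 0.870 to 0.997 for Obp99b. With single arrays left out it ran from 0.985 to 0.996, 0.973 to 0.985 and 0.944 to 0.983. Values that moved by more than their leave-one-out SE were Spearman's rho for FucTB (0.976) and Obp99b (0.881) and, for CG1850, centring with scaling (0.988), the arrays with a Cy5 gain of 64 (0.987) and the replicate block (0.951). Leaving out Rover 3 with sitter 4, chosen after seeing the data, gave 0.969, 0.942 and 0.870. The Rover minus sitter differences kept their sign, and with single arrays left out ran from 1.67 to 2.86 for FucTB, 1.55 to 3.43 for CG1850, 1.21 to 2.44 for Obp99b and 1.98 to 3.41 for Fbp2. The lowest was without sitter replicate 4 in each. With medians of the arrays in place of means they were 1.20, 1.24, 1.29 and 1.78. Without Rover 3 and sitter 4 together they were 0.93, 0.90, 0.62 and 1.23.

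Features called in sitter numbered 4583 as deposited, 2573 centred and 2433 with print lot as a block, and 22 to 5023 with single arrays left out. In the difference 9 were called, 15 centred, 1 centred and scaled, and 0 by limma at a Cy5 gain of 64 alone, where 1313 had an unadjusted p under 0.05. The cause was not tested. With the replicate block, which rests on no known pairing (deviations of same-numbered arrays correlated at 0.06 to 0.31, and 3 of 8 arrays correlated best with their own number), 9230 features were called in Rover, 5854 in sitter and 7 in the difference. Ratios alone do not show which spots were dim, so signal over background is unknown here.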

Other observations

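The genes least like Fbp2, among those with an SD of at least 0.5, were CG14265 (r of -0.926), CG11327 (-0.926) and Coq3 (-0.922), the last for a methyltransferase of ubiquinone synthesis. CG14265 gave -1.20, -1.71, -2.23 and -0.99 on Rover arrays 1 to 4, and -0.82, -0.96, -0.74 and 0.68 on sitter arrays 1 to 4. It was lowest on Rover 3 and highest on sitter 4, the reverse of FucTB, CG1850 and Obp99b. Coq3 was likewise lowest on Rover 3 (-1.68) and highest on sitter 4 (0.27). In these ratios as deposited, the median of all spots was also lower on Rover 3 (-0.47) than on sitter 4 (-0.13). The part of this offset in the negative r of CG14265, CG11327 and Coq3 was not tested. The ratios spanned 2.91 for CG14265 and 1.95 for Coq3, against 7.22 for FucTB, 9.01 for CG1850 and 5.97 for Obp99b.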
